A study of Mus musculus with 219 samples.

Results

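The transcription factor p53 and 9 genes that it is known to switch on were followed from single blastomeres of 2-cell mouse embryos to twin and intact blastocysts. The 10 genes were Trp53, which encodes p53, and Trp53inp1, Cdkn1a, Mdm2, Ccng1, Bbc3, Phlda3, Zmat3, Sesn1 and Btg2. They were looked up by symbol among the 32285 genes of the blastomere and blastocyst count tables, and each was found once in both. They were selected on the counts of twin and intact blastocysts, since Trp53inp1 was much lower in twins, so that all values of the 10 genes in that comparison are given as a description, without a test.

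The embryos came from B6C3F1 oocytes injected with CD1 sperm (intracytoplasmic sperm injection, ICSI), and this genotype was common to all groups. The sperm head was left opposite the meiotic spindle (contralateral), beside it (ipsilateral, called isolateral in the labels) or between these poles (equatorial). At the 2-cell stage the sister blastomeres were either lysed one by one or grown apart in KSOM medium to the blastocyst stage (twin blastocysts), whereas intact blastocysts came from embryos that were never bisected. A twin blastocyst hence grew from 1 blastomere without its sister. Per the study's methods, bisection also took the blastomeres out of the zona pellucida in a slightly hypertonic medium, and each was then cultured alone. A twin pair further needed both blastomeres to reach the blastocyst stage. These steps cannot be told apart from the lack of the sister in the comparison with intact blastocysts. Each library holds 1 blastomere or 1 whole blastocyst, and the labels do not tell which oocyte donors the embryos shared.

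The values below rest on 55 pairs of sister blastomeres (21 contralateral, 21 ipsilateral, 13 equatorial), 19 pairs of twins (6, 7 and 6) and 31 intact blastocysts (11, 8 and 12). Counts of both sisters or both twins were added, so that the embryo was the replicate, and levels are given as CPM, the counts of a gene scaled to an equal total count in each embryo. The total count per library ranged from 360474 to 2100561 in blastomeres, from 713410 to 2161062 in twins and from 234099 to 1254428 in intact blastocysts. In 8 intact blastocysts fewer than 11000 genes were detected, against a median of 12094 over all 31 and of 12478 in twins. Oocyte markers (6 genes such as Zp3 and Gdf9) summed to a median of 2452.1 CPM in 2-cell embryos and to 3.58 and 5.61 CPM in twin and intact blastocysts, where all 7 trophectoderm markers had a median above 0. Cumulus cell markers summed to medians between 0 and 7.62 CPM in the 3 kinds of embryo.

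As background, p53 is a transcription factor that is made all the time and held at a low level by Mdm2, a ubiquitin ligase that marks it for degradation. DNA damage and other stress free it from Mdm2, and p53 then raises the transcription of genes that halt the cell cycle, repair DNA or set off cell death, among them Mdm2 itself, which closes the loop. Because the protein is regulated after translation, the mRNA of p53 is not a measure of its activity. p53 binds DNA as a tetramer at pairs of 10-base half-sites. Embryos lacking p53 can form blastocysts and be born, and the pathway is known for removing damaged or less fit cells in early development.

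The promoters of 3 genes are shown because they are the p53 targets whose windows hold a half-site and whose transcripts were counted in all 19 twin pairs and 31 intact blastocysts. Each window runs from 250 bases before to 50 bases after a transcription start in RefSeq (build GRCm38.p6), is written 5′ to 3′ on the strand of the gene, and has its p53 half-sites in capitals. The windows are chr10:117710709-117711008 (minus strand) for Mdm2, chr11:40755237-40755536 (minus strand) for Ccng1 and chr17:29090729-29091028 (plus strand), the more upstream of its windows, for Cdkn1a.
Mdm2: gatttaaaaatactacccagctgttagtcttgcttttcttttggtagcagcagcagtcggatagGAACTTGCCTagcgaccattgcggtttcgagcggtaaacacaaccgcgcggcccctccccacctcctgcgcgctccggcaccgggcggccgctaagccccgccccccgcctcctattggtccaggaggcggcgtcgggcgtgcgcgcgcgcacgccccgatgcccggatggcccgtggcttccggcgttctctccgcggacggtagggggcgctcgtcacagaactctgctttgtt
Ccng1: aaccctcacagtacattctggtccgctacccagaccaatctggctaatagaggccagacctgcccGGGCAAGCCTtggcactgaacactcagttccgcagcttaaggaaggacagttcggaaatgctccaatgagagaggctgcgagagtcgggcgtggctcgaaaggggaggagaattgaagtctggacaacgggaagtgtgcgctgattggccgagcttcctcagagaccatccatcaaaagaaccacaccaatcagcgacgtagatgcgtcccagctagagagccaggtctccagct
Cdkn1a: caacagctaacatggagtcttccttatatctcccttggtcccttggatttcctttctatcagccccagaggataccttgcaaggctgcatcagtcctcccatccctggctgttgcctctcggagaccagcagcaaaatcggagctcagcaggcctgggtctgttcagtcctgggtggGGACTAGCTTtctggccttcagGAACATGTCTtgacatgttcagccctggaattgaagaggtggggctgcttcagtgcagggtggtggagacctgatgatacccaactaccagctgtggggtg
Windows existed for 8 of the 10 genes, and those of Trp53 and of Sesn1 also held a half-site, which makes 5 genes of 8 (Trp53inp1 and Zmat3 had no window). A half-site stood in 8.36% of all 32851 windows, in at least 1 window of 9.55% of 27025 genes, and in those of 12 of 38 other p53 targets. The p53 half-site motif reads the same on both strands, so that 1 search covers both. Only these letters in these windows were searched, and whether p53 was bound there was not measured.

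The 10 genes differed in level and in when they appeared. Per unit of exonic length (TPM, which divides CPM-like values by length, mean ± SD over embryos), the order in intact blastocysts was led by Ccng1 with 248 ± 87 TPM and Cdkn1a with 186 ± 75 TPM (n = 31). Btg2 with 120.7 ± 90.1 TPM, Trp53inp1 with 115.2 ± 38.1 TPM, Mdm2 with 110.8 ± 37.0 TPM and Phlda3 with 108.02 ± 53.8 TPM lay within 1 SD of each other. Trp53 itself followed with 47.9 ± 34.5 TPM, then Bbc3 with 32.4 ± 25.9 TPM, Zmat3 with 21.3 ± 10.2 TPM and Sesn1 with 4.18 ± 5.07 TPM. The level of Trp53 and that of Bbc3 differed by less than their SDs.

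In twin pairs Ccng1 again led with 178 ± 38.3 TPM, followed by Cdkn1a with 111.8 ± 39 TPM and Phlda3 with 98.3 ± 31 TPM (n = 19). Btg2 with 59.6 ± 22.1 TPM, Mdm2 with 50.2 ± 12.1 TPM and Trp53 with 49.6 ± 14.5 TPM did not differ beyond their SDs. Trp53inp1 came after Trp53, with 25.3 ± 9.56 TPM, and Sesn1 with 11.7 ± 4.26 TPM, Bbc3 with 7.40 ± 3.66 TPM and Zmat3 with 4.55 ± 1.68 TPM were the lowest.

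In 2-cell embryos the order was another one, with Mdm2 at 132 ± 36.7 TPM and Trp53inp1 at 129.4 ± 28.8 TPM above all other members and indistinguishable from each other (n = 55). Cdkn1a at 40.3 ± 23 TPM, Trp53 at 37.9 ± 16.3 TPM, Btg2 at 30.5 ± 23.2 TPM and Ccng1 at 25.8 ± 14.9 TPM formed a middle group whose neighbours differed by less than their SDs. Bbc3 and Phlda3 were hardly counted at this stage. Bbc3 (Puma) encodes a protein that binds and neutralizes the survival factors of the Bcl2 family. It had a count in 18 of 110 blastomeres (16.4%, 95% Clopper-Pearson interval 10.0% to 24.6%) and in 17 of 55 embryos. The interval takes sister blastomeres as independent, which they may not be. Phlda3, which competes with the survival kinase Akt for membrane lipids, had a count in 0 of 110 blastomeres, and so in 0 of 55 embryos. By the same method, with the same limit, this allows a share of up to 3.30% of blastomeres. Phlda3 had a count in all 38 twins and all 31 intact blastocysts. Zmat3, an RNA-binding regulator of splicing, was counted in 66 of 110 blastomeres. The 2 stages stand in separate tables, differ in plate and read layout, and no test was made between them. Per the study's methods, part of the blastomeres had paired-end reads, of which only the first was kept and shortened. The blastocysts had single-end reads.

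**Figure D1:**
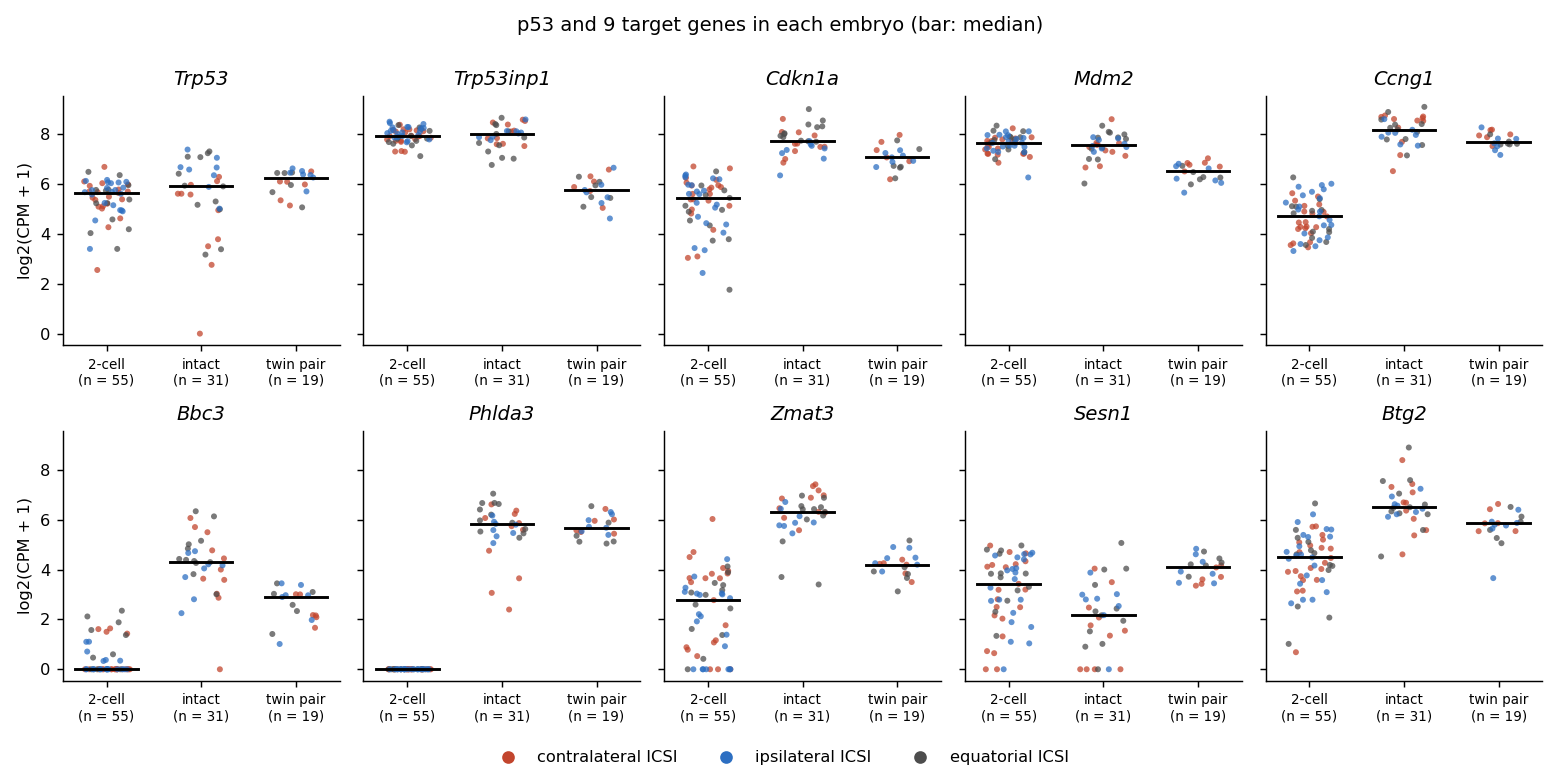
Level of p53 and its 9 targets in each embryo on the log2(CPM + 1) scale, with 2-cell embryos and twin pairs as sums over both sisters or twins, colours for the ICSI site and bars at the median. All 19 twin pairs lie below all 31 intact blastocysts in Trp53inp1, most twins lie low in Zmat3, Bbc3 and Mdm2, and the levels of Trp53 and Phlda3 overlap.

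The first comparison asked how the pathway differed between twin and intact blastocysts. The levels of Trp53 mRNA overlapped, while Trp53inp1, Zmat3, Bbc3, Mdm2, Btg2, Cdkn1a and Ccng1 were lower in twins and Sesn1 was higher. All 10 genes passed the filter on low counts in this fit. Over all 9379 genes tested, edgeR called 42.3% at an adjusted p under 0.05, 20.4% higher and 21.9% lower in twins, and the median log2 difference was -0.01. The direction of the members was part of the reason for their choice, so nothing is read from their number.

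Trp53 ranged from 32.5 to 98.1 CPM in twin pairs, with a median of 75.9 CPM, and from 0 to 166 CPM in intact blastocysts, with a median of 59.1 CPM. The twin values lay inside the range of the intact ones, 8 intact blastocysts being above and 9 below all twins. The fitted log2 difference of twin minus intact was 0.00 (SE 0.23). In intact blastocysts the level of Trp53 went with the number of detected genes (Spearman rho 0.72 over the 31 libraries, which share the depth of each library, as a description), whereas over the 19 twin pairs rho was 0.14. With total count and detected genes in the fit, the log2 difference of Trp53 was -1.32 (SE 0.50), and the median over all genes moved from -0.01 to -0.15, against which all values with these depth covariates are to be read. Every twin pair, as a sum of 2 libraries, had a higher total count than any intact blastocyst. These fits hence extrapolate over depth and do not compare embryos of equal total count.

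Mdm2, Ccng1 and Trp53inp1 belong to the loops that act back on p53. Mdm2 ranged from 49.5 to 130 CPM with a median of 90.1 CPM in twins, and from 64.1 to 389 CPM with a median of 191 CPM in intact blastocysts. Taken singly, twin blastocysts ranged from 47.3 to 138 CPM. All 19 twin pairs were below the intact median, and 26 of 31 intact blastocysts were above every twin pair. The log2 difference was -1.21 (SE 0.14), and -1.29 (SE 0.27) with the depth covariates.

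Ccng1 encodes cyclin G1, which brings the phosphatase PP2A to Mdm2. Its level was between 143 and 309 CPM in twins, with a median of 208 CPM, and between 90.9 and 548 CPM in intact blastocysts, with a median of 291 CPM. The twin values lay inside the range of the intact ones, with 18 of 19 twin pairs below the intact median. The log2 difference was -0.54 (SE 0.14).

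Trp53inp1 encodes a nuclear partner of p53 that favours its phosphorylation by Hipk2 and that also acts in autophagy. The gene lies on the plus strand at chr4:11156431-11174379 (GRCm38). It ranged from 23.6 to 100 CPM in twin pairs, with a median of 53.4 CPM, and from 108.2 to 404 CPM in intact blastocysts, with a median of 258 CPM. With both twins added, the groups did not overlap. Taken singly, twin blastocysts ranged from 19.2 to 136 CPM, so that some lay above the lowest intact blastocyst. Among all genes tested, 15, or 0.160%, had every twin pair below every intact blastocyst, and 27, or 0.288%, had the opposite pattern; Trp53inp1 was chosen for this difference and its place among the 15 is a description. The log2 difference was -2.28 (SE 0.15), the ratio of medians 0.207, and over 13 other ways of fitting it lay between -2.63 and -2.14. The median level in intact blastocysts was close to that of 2-cell embryos (245 CPM, range 138 to 362), with no test made between the tables.

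Cdkn1a and Btg2 act on the cell cycle. Cdkn1a encodes p21, the inhibitor of cyclin-dependent kinases through which p53 halts cells before S phase, and was counted at 72.2 to 251 CPM in twins (median 133 CPM) and at 80.6 to 515 CPM in intact blastocysts (median 210 CPM). The log2 difference was -0.73 (SE 0.15), with 17 of 19 twin pairs below the intact median. In the annotation, 7.68% of the exonic bases of Cdkn1a are shared with a transcript on the opposite strand that is not in the count table, and the libraries do not mark strand. Btg2, an antiproliferative adaptor of the CCR4-NOT deadenylase, ranged from 11.6 to 98.4 CPM in twins (median 57 CPM) and from 22.1 to 477 CPM in intact blastocysts (median 89.8 CPM). Its log2 difference of -1.08 (SE 0.24) was -0.37 (SE 0.40) with the depth covariates.

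Bbc3 and Phlda3, both known from cell death, are described next. Bbc3 ranged from 1.02 to 9.92 CPM in twins (median 6.46 CPM) and from 0 to 80.1 CPM in intact blastocysts (median 18.7 CPM). Taken singly, twin blastocysts ranged from 0 to 16.7 CPM. All twin pairs were below the intact median and 25 of 31 intact blastocysts were above every twin pair, at a log2 difference of -2.09 (SE 0.37). With the depth covariates it was -0.19 (SE 0.55). This was the only value of a member that moved by more than 1 SD of the intact blastocysts among the alternatives tried. The SD was that of the same gene on the log2(CPM + 1) scale. Trp53 and Btg2 moved with depth too, as given above, but by less than their own SD. Phlda3 overlapped widely, at 32 to 92.5 CPM (median 50.3 CPM) in twins and 4.27 to 131.3 CPM (median 56.1 CPM) in intact blastocysts, with a log2 difference of -0.15 (SE 0.20).

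Zmat3 (chr3:32334792-32366014, minus strand) and Sesn1 (chr10:41809935-41908424, plus strand) differed in opposite directions. Zmat3 ranged from 7.73 to 35 CPM in twins (median 17.4 CPM) and from 9.58 to 170 CPM in intact blastocysts (median 78.9 CPM), and 28 of 31 intact blastocysts were above every twin pair. Taken singly, twin blastocysts ranged from 1.80 to 38.4 CPM of Zmat3. The log2 difference of Zmat3 between twin pairs and intact blastocysts was -2.25 (SE 0.22), and -1.79 (SE 0.39) with the depth covariates. Sesn1, a stress-induced inhibitor of mTORC1 signalling, was the member that was higher in twins, at 9.23 to 27.6 CPM (median 16 CPM) against 0 to 32.6 CPM (median 3.50 CPM). It had no count in 6 of 31 intact blastocysts, a median count of 3 there, and a log2 difference of 1.36 (SE 0.36).

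**Figure D2:**
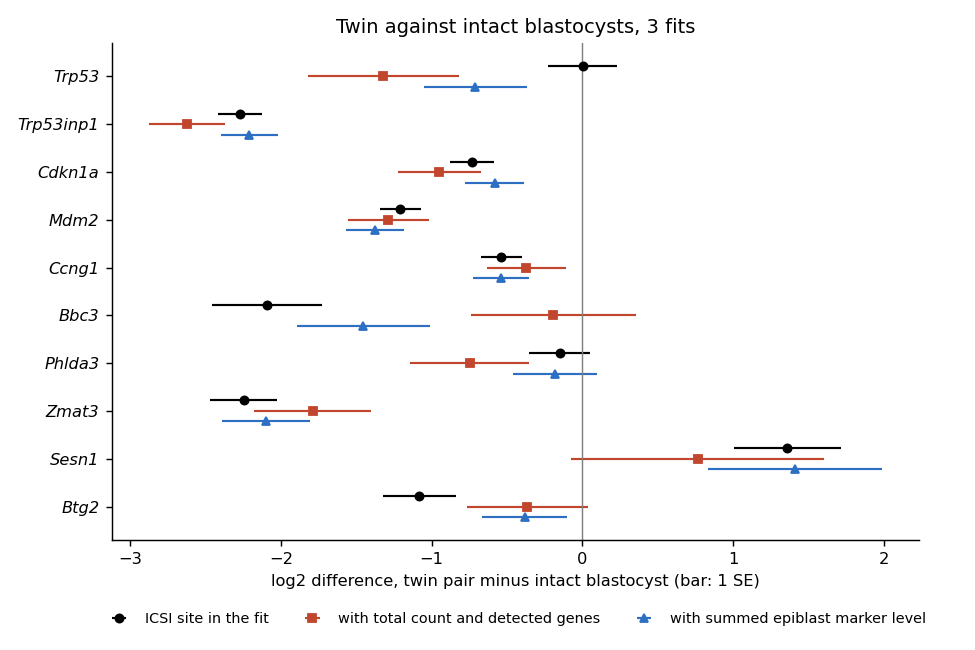
Log2 difference of twin pairs minus intact blastocysts for the 10 genes, with bars of 1 SE, in the fit with the ICSI site and in the 2 fits that add depth (total count and detected genes) or the summed level of epiblast markers. Trp53inp1, Zmat3 and Mdm2 stay below -1 in the 3 fits, whereas Trp53 goes from 0.00 to -1.32 and Bbc3 from -2.09 to -0.19 with depth.

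Depth and cell types moved with this comparison. A twin pair is the sum of 2 libraries that were each deeper than most intact ones (median total count 1093478 against 705837). With at least 713410 counts in each library, every pair exceeded the highest intact total of 1254428. The fit with depth covariates can therefore not separate total count from being a twin pair. The 6 epiblast markers summed to 369 to 729 CPM in twin pairs (median 504 CPM) and to 24 to 524 CPM in intact blastocysts (median 194 CPM), with no marker at a median of 0 in either. The 5 primitive endoderm markers had medians of 409 and 325 CPM, and the 7 trophectoderm markers 3498 and 3980 CPM. Most of the trophectoderm sum came from Krt8 (medians of 990 and 838 CPM) and Krt18 (1297 and 1229 CPM). Its markers did not move together, as edgeR called 4 lower and 1 higher in twins (21.9% and 20.4% of all genes). Cdx2 had medians of 187 CPM in twin pairs and 60.1 CPM in intact blastocysts, whereas Eomes had 343 and 627 CPM. A whole blastocyst is a mixture, so that fewer cells of a type and less RNA per cell cannot be told apart. With the summed epiblast level in the fit, a covariate chosen after seeing the data, Trp53inp1 was at -2.21, Zmat3 at -2.10 and Mdm2 at -1.38 on the log2 scale, and Trp53 at -0.71. Another fit, at overlapping depth, set the twins labelled a against the 9 deepest intact blastocysts. Over 13 alternatives, this fit among them, Trp53 lay between -1.32 and 0.58 and Btg2 between -1.33 and -0.37. Bbc3 lay between -2.49 and -0.19 over the 12 that tested it. The part of depth and of the share of epiblast in the differences was not tested further. Without the 8 intact blastocysts with few detected genes, also a choice made after seeing the data, the values were -2.36 for Trp53inp1, -2.22 for Zmat3, -1.22 for Mdm2, -1.72 for Bbc3 and -0.20 for Trp53.

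Within the 3 ICSI sites, Trp53inp1 was lower in twins by a log2 difference of -2.24 (contralateral), -2.44 (ipsilateral) and -2.16 (equatorial). Mdm2 was at -0.85, -1.34 and -1.45, and Zmat3 at -2.86, -1.70 and -2.20 in the same order. Cdkn1a was at -0.55, -0.35 and -1.28. Whether such a difference depended on the site was tested by an interaction term in a fit of both groups, a measure on which the genes had not been chosen. No member was called out of 10 tested, and no gene of 10689 (0.00%; 246 at an unadjusted p under 0.05). The smallest p among the members was that of Cdkn1a (unadjusted p = 0.0102, adjusted p = 1 by edgeR), and in simulated data this test recovered 4.06% of 2-fold changes, so that an interaction of that size was mostly not detectable.

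The wider pathway was taken from lists of 48 other p53 targets and 38 regulators and cofactors of p53. The lists were chosen with earlier results of these data known. Their shares and medians beside those of all genes are hence a description, not a test of the pathway. Of 39 targets tested, 5 were higher and 15 lower in twins (12.8% and 38.5%, beside 20.4% and 21.9% of all genes). So 51.3% were called against 42.3% of all genes, and the median log2 difference was -0.36 against -0.01 over all genes. Of 33 regulators, 4 were higher and 8 lower (36.4%), at a median of -0.07. Together 32 of these 72 genes were called, 16 with the depth covariates (19.4% of all genes in that fit) and 42 without the 8 intact blastocysts of few detected genes (50.2% of all genes). With the depth covariates all genes leaned lower as well, with 7.62% called higher and 11.7% lower in twins. The levels of depth and epiblast markers given above moved with these lists too, and their part in the result was not tested. The lower targets included Ccng2, a cyclin of resting cells and relative of Ccng1, with a log2 difference of -3.50 (SE 0.45, edgeR adjusted p = 6.52e-09), as twin pairs had 0 to 13.3 CPM (median 5.34 CPM) and intact blastocysts 0 to 210 CPM (median 58.2 CPM). The stress kinase Plk3 was at -2.51 (SE 0.29, adjusted p = 1.97e-10), with medians of 16.7 and 105.4 CPM. Sesn2, the paralogue of Sesn1, moved the other way from it, at -1.03 (SE 0.15, adjusted p = 1.37e-07) with medians of 82.8 and 150 CPM.

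Polk, a DNA polymerase that copies past lesions, was at -1.68 (SE 0.29, edgeR adjusted p = 2.61e-06). Tnfrsf10b and Eda2r, 2 members of the tumour necrosis factor receptor family, were at -1.70 (SE 0.29, adjusted p = 3.18e-06) and -1.89 (SE 0.36, adjusted p = 1.58e-05). The higher targets were Tigar, Perp, Triap1, Pml and Wrap53. Tigar, a phosphatase that diverts glucose from glycolysis, had 158 to 264 CPM in twins and 44.3 to 197 CPM in intact blastocysts, a log2 difference of 0.74 (SE 0.11, adjusted p = 1.50e-07). Perp, a membrane protein of desmosomes, was at 1.49 (SE 0.25, adjusted p = 3.87e-06) and Triap1, an inhibitor of apoptosis in mitochondria, at 0.86 (SE 0.23, adjusted p = 0.00159). Pml, the scaffold of nuclear bodies, and Wrap53, the neighbour of Trp53 on the other strand, were at 1.28 each (adjusted p = 0.00204 and 0.0032). With the depth covariates Perp and Triap1 changed sign, to -0.059 and -0.50, and were no longer called.

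Among the regulators, the kinase Dyrk2, which phosphorylates p53, was lower in twins by a log2 difference of -2.27 (SE 0.26, edgeR adjusted p = 8.45e-11), at medians of 10.0 against 45.9 CPM. Both Ppp1r13l and Trp53bp2 belong to the ASPP family, whose members bind p53 and steer its choice of targets, and they went in opposite directions. The inhibitory member Ppp1r13l (iASPP) was at -1.65 (SE 0.24, adjusted p = 7.70e-08) and the activating member Trp53bp2 (ASPP2) at 1.76 (SE 0.26, adjusted p = 9.08e-08). Aurka, a mitotic kinase that phosphorylates p53, was higher at 1.19 (SE 0.16, adjusted p = 7.55e-09), and so were the methyltransferase Smyd2 at 1.1 (SE 0.32, adjusted p = 0.00393) and the PP2A subunit Ppp2r5c at 0.32 (SE 0.10, adjusted p = 0.00928). The ribosomal proteins Rpl5 and Rpl11, which bind Mdm2 when free of the ribosome, were at -0.63 (SE 0.12, adjusted p = 1.92e-05) and -0.48 (SE 0.10, adjusted p = 0.000114). Smyd2, Rpl5 and Rpl11 changed sign with the depth covariates, to -1.35, 0.57 and 0.33, the value of Rpl5 with an adjusted p of 0.00183.

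**Figure D3:**
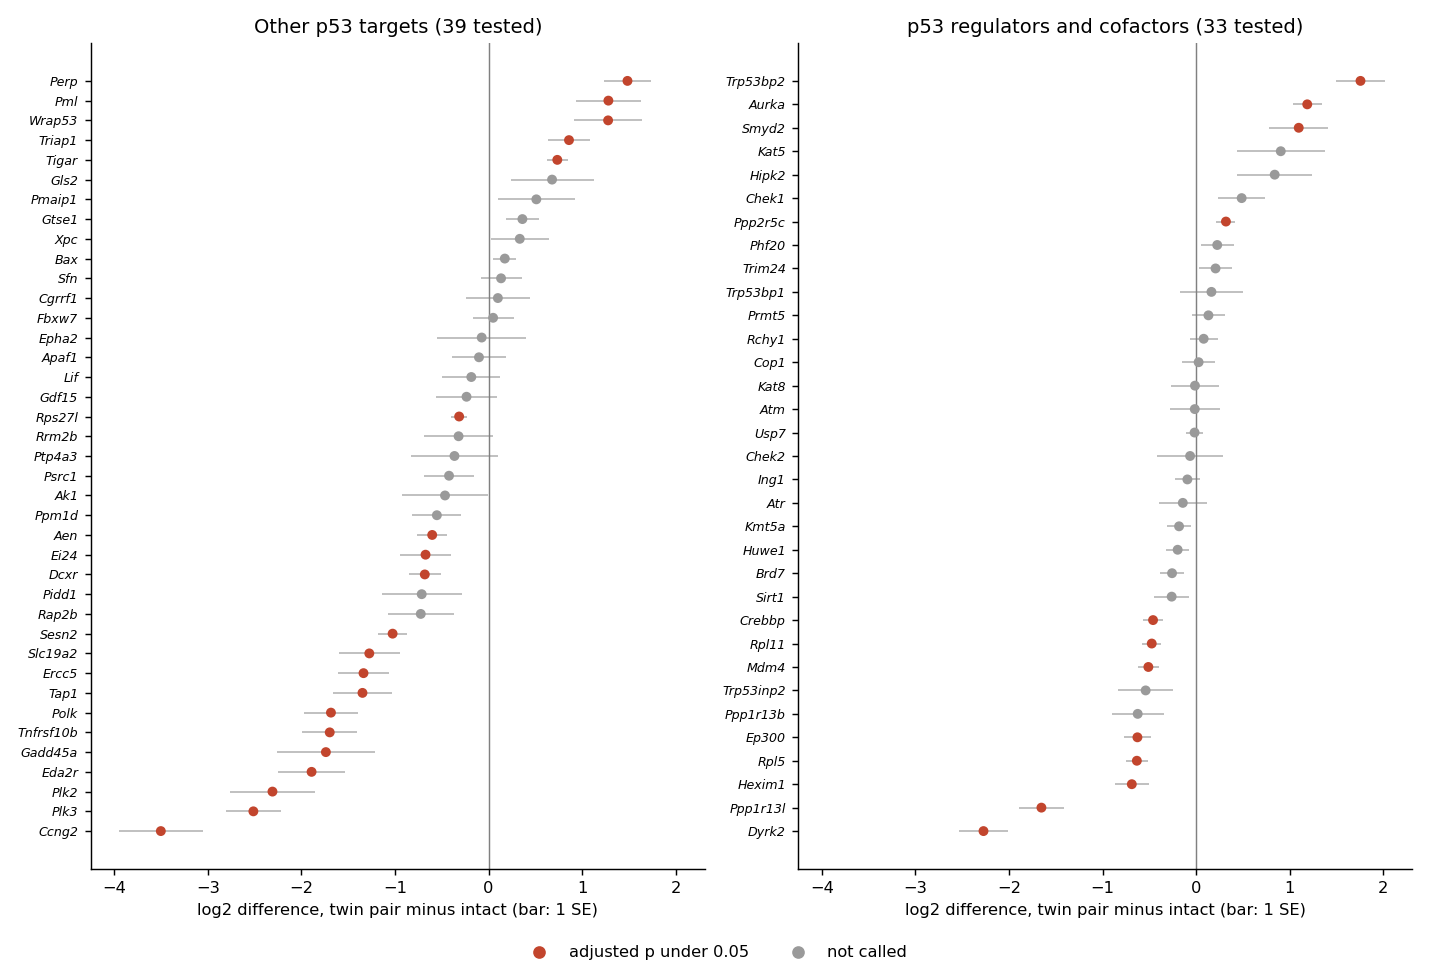
Log2 difference of twin pairs minus intact blastocysts, with bars of 1 SE, for the 39 tested targets and the 33 tested regulators of p53 outside the 10 genes, in red where edgeR called them. Called targets are mostly to the left (15 against 5), with Ccng2 at -3.50 farthest from 0. Over all genes tested, 21.9% were called lower and 20.4% higher.

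The second question was whether the site of sperm deposition changed the pathway. No member was called in any of the 9 comparisons between sites, in 2-cell embryos, intact blastocysts or twins. In 2-cell embryos 8 of the 10 genes passed the filter (Bbc3 and Phlda3 did not), and 0 of them were called between contralateral and equatorial ICSI, where 13.2% of 13141 genes were. The same held when ipsilateral embryos were set against equatorial ones (6.65% of genes) or against contralateral ones (0.00%). Their log2 differences lay between -0.51 and 0.53 in the contralateral against equatorial comparison, with 1 at an unadjusted p under 0.05. DESeq2 called 0 of the members in each of these comparisons as well.

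That one was Mdm2, with 115.1 to 301 CPM (median 186 CPM) in contralateral, 76.1 to 277 CPM (median 201 CPM) in ipsilateral and 127.1 to 325 CPM (median 219 CPM) in equatorial embryos. The groups overlapped almost fully, and the contralateral minus equatorial log2 difference was -0.25 (SE 0.12, edgeR adjusted p = 0.191). Trp53inp1 had medians of 242, 278 and 226 CPM at the contralateral, ipsilateral and equatorial sites. Ipsilateral minus equatorial was 0.19 (SE 0.11, adjusted p = 0.33) and contralateral minus ipsilateral was -0.18 (SE 0.09, adjusted p = 1). Trp53 had medians of 44.1, 50.5 and 40.7 CPM, with log2 differences from equatorial of 0.07 (SE 0.26) and 0.14 (SE 0.26). The sites of these genes were hence apart by less than the spread between embryos. Cdkn1a ranged from 2.39 to 104 CPM over all 2-cell embryos, and its contralateral minus equatorial log2 difference of 0.51 (SE 0.33) had an edgeR adjusted p of 0.354.

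Of the wider lists, 6 of 34 targets (17.6%) and 10 of 34 regulators (29.4%) were called in 2-cell embryos between contralateral and equatorial ICSI, beside 13.2% of all genes. Sesn2 was lower in contralateral embryos by a log2 difference of -1.25 (SE 0.23, edgeR adjusted p = 0.000173). The checkpoint kinase Chek1, which phosphorylates p53, was higher at 0.41 (SE 0.09, adjusted p = 0.000722), and Trp53inp2, the paralogue of Trp53inp1, was lower at -0.49 (SE 0.11, adjusted p = 0.000748). Ppp2r5c was lower at -0.38 (SE 0.08, adjusted p = 0.000929). Between ipsilateral and equatorial ICSI, 4 of 34 targets and 4 of 34 regulators were called (11.8% each, beside 6.65%). Cop1, a ubiquitin ligase for p53, was lower in ipsilateral embryos at -0.32 (SE 0.07, adjusted p = 0.00475), as were the p53 kinase Hipk2 at -0.69 (SE 0.17, adjusted p = 0.00717), Ei24 at -0.71 (SE 0.18, adjusted p = 0.00846) and Ppp2r5c at -0.33 (SE 0.09, adjusted p = 0.00979). With the depth covariates these 4 genes were no longer called (Cop1 -0.22, Hipk2 -0.69, Ei24 -0.56 and Ppp2r5c -0.20, edgeR adjusted p between 0.0963 and 0.349), and over all genes 51, or 0.388%, were called in that comparison, with 0 lower in ipsilateral embryos. Equatorial 2-cell libraries had the lowest median total count (1108741, against 1530273 in the ipsilateral group), and its part in the result was not tested. Between contralateral and ipsilateral ICSI 0 genes of either list were called by edgeR, with 3 targets and 1 regulator at an unadjusted p under 0.05.

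In intact blastocysts 9 of the 10 genes passed the filter (Sesn1 did not), and 0 were called in each of the 3 comparisons, as were 0 of all 9165 genes (0.00%) by edgeR. At an unadjusted p under 0.05 there were 3 members in the contralateral against equatorial comparison, 1 in the ipsilateral against equatorial and 3 in the contralateral against ipsilateral one, beside 629, 338 and 522 of all genes. The smallest p was that of Cdkn1a. It ranged from 80.6 to 211 CPM (median 168 CPM) in the 8 ipsilateral, from 207 to 515 CPM (median 260 CPM) in the 12 equatorial and from 115.3 to 392 CPM (median 195 CPM) in the 11 contralateral blastocysts. The ipsilateral and equatorial ranges overlapped only between 207 and 211 CPM, and the log2 difference of ipsilateral minus equatorial was -0.92 (SE 0.22, unadjusted p = 0.000109, edgeR adjusted p = 1). Over its alternatives, among them DESeq2 (adjusted p = 0.198) and a fit without a filter on low counts (adjusted p = 0.116), it was not called.

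Trp53 had medians of 46.9, 97.8 and 59.7 CPM in contralateral, ipsilateral and equatorial intact blastocysts, and its contralateral minus ipsilateral log2 difference was -1.26 (SE 0.47, unadjusted p = 0.00943, edgeR adjusted p = 0.822). The contralateral group had the fewest detected genes (median 11003, against 12422 in the ipsilateral group), and with the depth covariates the difference was -0.61 (SE 0.48). Zmat3 had medians of 114.6, 58.1 and 81.7 CPM, a contralateral minus ipsilateral difference of 0.82 (SE 0.35, edgeR adjusted p = 0.836), which was 1.29 (SE 0.39, adjusted p = 0.999) with the depth covariates. In simulated data at these group sizes, edgeR recovered 23.8% of 2-fold changes between contralateral and equatorial intact blastocysts, 57.4% in twins and 43.8% in 2-cell embryos. Most simulated 2-fold changes were hence missed in intact blastocysts and in 2-cell embryos, and smaller ones would be missed more often. These shares average over genes of all levels. In the 2-cell simulation 192 of 12419 genes were changed, whereas the real fit called 13.2% of genes. The share for a single member can differ, since the SE of members in that comparison ran from 0.10 (Trp53inp1) to 0.82 (Zmat3).

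In twin pairs all 10 genes passed the filter and 0 were called, as were 0 of 10995 genes (0.00%) by edgeR, with 728, 426 and 754 genes at an unadjusted p under 0.05 in the contralateral against equatorial, ipsilateral against equatorial and contralateral against ipsilateral comparisons. Mdm2 and Ccng1 were highest in contralateral twins. Mdm2 had 90.1 to 130 CPM (median 111.4 CPM) in the 6 contralateral, 49.5 to 112 CPM (median 73.5 CPM) in the 7 ipsilateral and 62.6 to 105.4 CPM (median 76.3 CPM) in the 6 equatorial pairs. The log2 difference from equatorial was 0.50 (SE 0.18, unadjusted p = 0.00898, edgeR adjusted p = 0.61) and that from ipsilateral 0.47 (SE 0.17, adjusted p = 0.693). Ccng1 had medians of 251, 198 and 196 CPM and a log2 difference from equatorial of 0.31 (SE 0.14, adjusted p = 0.72). In intact blastocysts the contralateral minus equatorial difference of Mdm2 was -0.14 (SE 0.21).

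**Figure D4:**
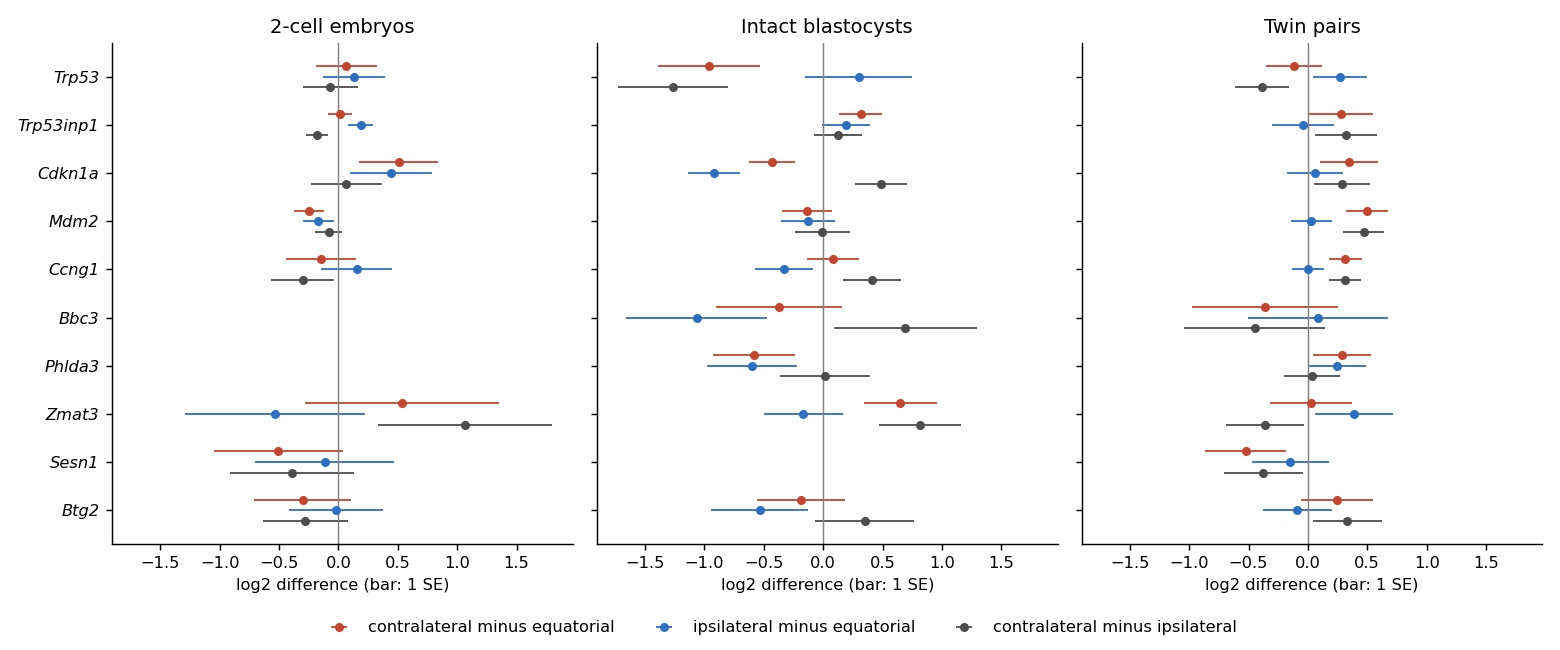
Log2 differences between ICSI sites for the 10 genes in 2-cell embryos, intact blastocysts and twin pairs, with bars of 1 SE, each point 1 gene in 1 comparison and genes that failed the filter left blank. No point was called, and the ones farthest from 0 for their error are Cdkn1a in intact blastocysts (ipsilateral minus equatorial, -0.92) and Mdm2 in twins (contralateral minus equatorial, 0.50).

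The third question was whether blastocysts, or blastomeres, of the same embryo were alike in these genes. The levels of twin a and twin b were correlated over the 19 pairs as log2(CPM + 1), with p-values from 100000 random pairings, 2-sided and not adjusted, for 10 genes. The median Spearman coefficient over all 10995 genes was 0.118. Its 2-sided 5% point was 0.458, of which only the positive side was counted, so that chance alone gives less than 5%. This point was reached by 8.50% of all genes. No member reached it. Mdm2 came closest, with a Spearman rho of 0.44 (permutation p = 0.0623) and a Pearson r of 0.464 (permutation p = 0.046). Without the 2 pairs whose twin a lay farthest from the median of twins a, r was 0.453. Twin b played no part in picking these pairs. Centred by ICSI site, the rho of Mdm2 was 0.218.

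For Trp53, r was 0.483 (permutation p = 0.0359) and rho 0.296 (permutation p = 0.216). Without the 2 pairs farthest out in twin a, r fell to 0.22, so that its size depended on them. For Trp53inp1, r was 0.199 (permutation p = 0.418) and rho 0.168 (permutation p = 0.488), at the 57.6th percentile of all genes. Twins of an embryo differed in Trp53inp1 by a median of 0.50 on the log2 scale, at most 1.69. The other 7 genes had rho between -0.058 (Bbc3) and 0.17 (Btg2). With total count and detected genes taken out, Trp53 (rho 0.481, permutation p = 0.038) and Mdm2 (rho 0.47, permutation p = 0.0453) passed the point of 0.458, which makes 2 of 10 members beside 7.92% of all genes in that setting. Without the 2 pairs farthest out in twin a in that setting, rho fell to 0.289 for Trp53 and 0.304 for Mdm2.

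**Figure D5:**
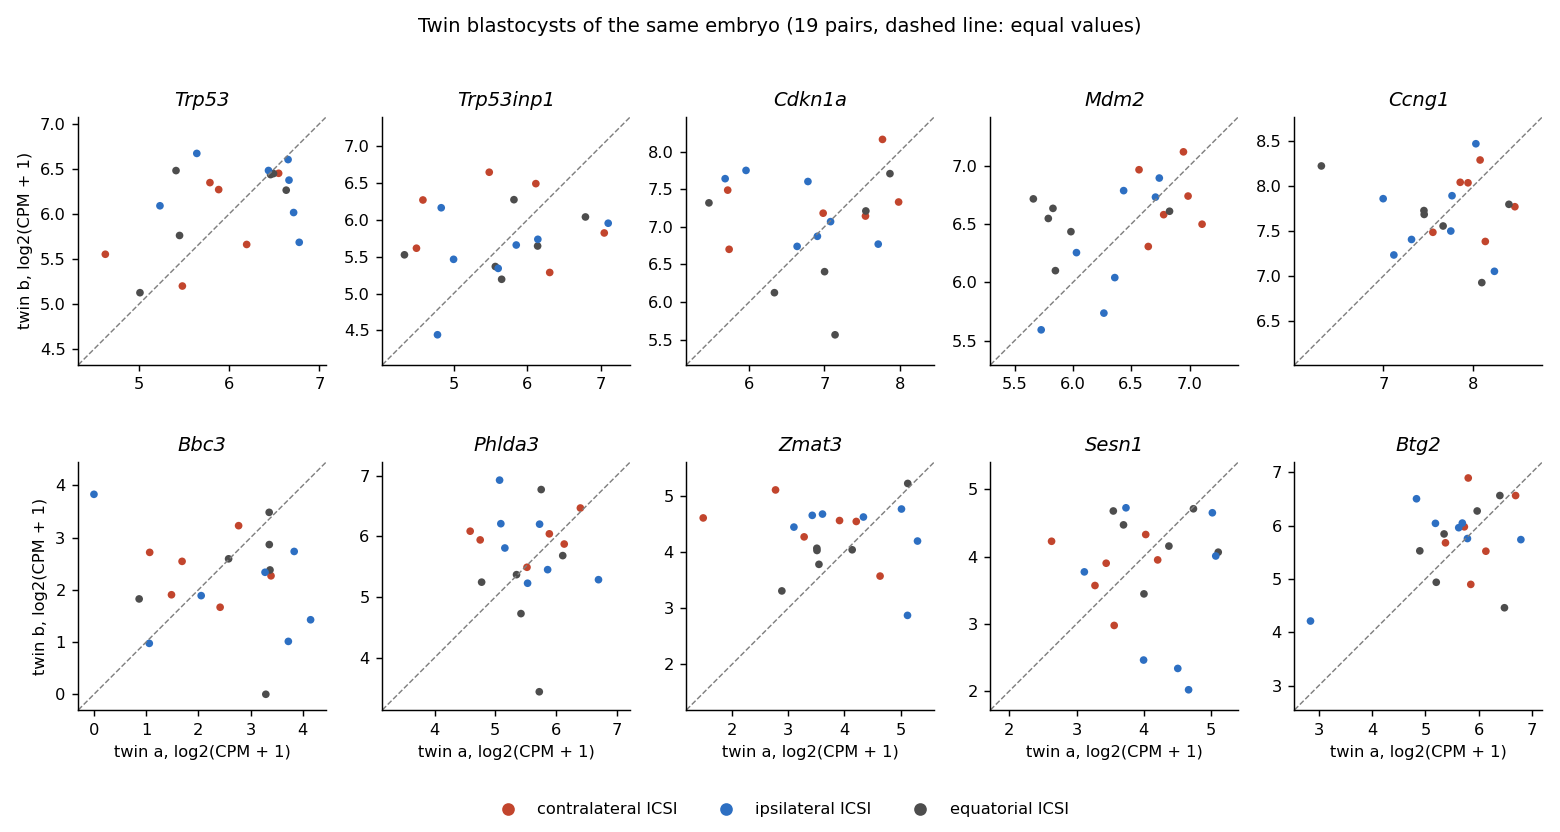
Level in twin b against twin a on the log2(CPM + 1) scale for each of the 10 genes, with 1 point for each of the 19 pairs, coloured by ICSI site, and a dashed line at equal values. Points follow the line loosely for Mdm2 (rho 0.44) and show no order for Cdkn1a (rho 0.047) and Ccng1 (rho -0.039).

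Sister blastomeres were compared in the same way after centring by plate, over 55 pairs and the 8 genes tested in 2-cell embryos. The 2-sided 5% point was at a rho of 0.267 and was reached, on its positive side, by 33.5% of all 13141 genes, with a median rho of 0.181. Mdm2 and Cdkn1a reached it, which makes 2 of 8. Mdm2 had a rho of 0.381 (permutation p = 0.00433) and an r of 0.365 (permutation p = 0.00615). Its r was 0.307 without the 2 pairs farthest out in blastomere a. Cdkn1a had a rho of 0.319 (permutation p = 0.0183) and an r of 0.314 (permutation p = 0.0197), and an r of 0.30 without its own 2 such pairs. With total count and detected genes taken out, the rho of Cdkn1a was 0.233, and with the 48 pairs of low mitochondrial share it was 0.224. The rho of Trp53inp1 was 0.173 (permutation p = 0.204) and that of Trp53 was 0.066 (permutation p = 0.633). A share of 2 in 8 is not above that of all genes.

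Last, the genes whose level was most like that of Trp53inp1 were listed over the 31 intact blastocysts, by Spearman rho among the 9378 other genes of the twin against intact fit, as a description. They were Braf (rho 0.777), Ranbp9 (0.756), Inpp5f (0.746), Tmod3 (0.725) and Nras (0.717), beside a median of 0.115 over all genes. Over the 19 twin pairs their rho with Trp53inp1 was 0.004, 0.309, 0.363, 0.104 and -0.121, beside a median of 0.014 over all genes. The 5 genes were picked as the highest in intact blastocysts, so lower values in other embryos follow from the choice and nothing is read from them. None of the 9 other members was among these 5. Zmat3 ranked 898th with a rho of 0.391, and Trp53 had a rho of 0.16 in intact blastocysts and -0.563 in twin pairs. Among the members themselves, the highest rho in intact blastocysts was 0.664 (Cdkn1a and Phlda3) and the lowest -0.278 (Trp53 and Zmat3). In twin pairs the highest was 0.618 (Ccng1 and Mdm2) and the lowest -0.584 (Btg2 and Trp53). Cdkn1a and Phlda3 had 0.598 in twin pairs, and Ccng1 and Mdm2 had 0.487 in intact blastocysts. These pairs were picked as extremes, and nothing is read from them. All these values share the library of each embryo and its depth.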

How the data were processed

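RNA of single blastomeres and blastocysts was copied to cDNA with a SMART-Seq kit and sequenced. Per the submitters' processing notes the tools were Trimmomatic 039, FastQC 0.12.1 and STAR 2.7.10b with GRCm38, and the study's methods name GENCODE M23. Whole-number counts of each gene were deposited by the authors, unstranded and not normalized. They are identical in every entry to the second deposited matrix, in which duplicate reads count as 1, and the largest counts were 6130 and 6486, so that very high counts may saturate. There are no molecular identifiers, and the Clopper-Pearson intervals cover the sampling of blastomeres only. Blastomeres with at least 9500 detected genes in both sisters (7 blastomeres were below) and all blastocysts (minimum 4000) were kept. All blastocysts were on plate 2, and 84 of 110 blastomeres on plate 1.

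CPM and TPM were computed here, with exonic lengths from GENCODE M21 of GRCm38 for 32235 of 32285 genes. The Trp53-ps pseudogene on chromosome 17 may share reads with Trp53. The tests were edgeR 4.0.16 quasi-likelihood tests (TMM, filterByExpr, robust; R 4.3.3) with Benjamini-Hochberg adjustment over all genes at 0.05, with ICSI site as factor, plate added for 2-cell embryos, and SE taken as the log2 difference over the root of F. Correlations used a pseudocount of 1 and 100000 permutations (Python 3.11.15, scipy 1.17.1, seed 7); p-values were not adjusted over the 10 genes, and the share of all genes past the same point is given instead. The fits were tested on simulated data. Alternatives were DESeq2 1.42.0, RLE factors, no filter, depth covariates and other sets of libraries. Labels do not say which embryos shared parents, so p-values measure the spread between embryos. Members and lists were chosen with earlier results of these data known. The text names all members, of the 2 lists the called genes with the smallest adjusted p (up to 6 targets and 4 regulators in each direction for twins, 4 in 2-cell embryos), and 5 genes most like Trp53inp1. In 2-cell data 1 blastomere without its sister was left out.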

Additional observations from a re-analysis of the deposited data

Results flagged for a closer look

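Of 40 groups of 4 to 10 embryos examined across the 10 genes, 3 had an embryo far from the rest of its group, about the number that chance gives with 1 in 20. In ipsilateral intact blastocysts the highest level of Trp53inp1 was 386 CPM and the next 279 CPM (n = 8). In equatorial twin pairs the highest level of Ccng1 was 255 CPM and the next 208 CPM (n = 6), and the highest level of Zmat3 was 35 CPM and the next 16.1 CPM (n = 6).

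The equatorial blastomere without its sister, which entered no comparison, held 182 CPM of Trp53inp1, 273 CPM of Mdm2, 68.1 CPM of Ccng1, 57.8 CPM of Cdkn1a, 15.5 CPM of Trp53, 6.90 CPM of Btg2 and 3.45 CPM of Zmat3, each from more counts than the 3 that a count of 0 allows.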

How the results depend on the processing

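The counts of members called between ICSI sites and for the interaction were 0 as first tested and stayed 0 in each alternative, which were DESeq2, RLE factors, no filter, depth covariates, other sets of pairs in 2-cell embryos and single twins in the interaction. Of 72 other p53 genes tested between twin and intact blastocysts 32 were called. With depth covariates 16 were (19.4% of all genes, from 42.3%), at overlapping depth (the twins labelled a against the 9 deepest intact blastocysts) 20 (19.4%), and within the contralateral, equatorial and ipsilateral groups, chosen after seeing the data and with fewer embryos, 10 (11.7%), 11 (7.81%) and 31 (35.7%). Depth covariates turned the sign of Perp (-0.059), Triap1 (-0.50), Smyd2 (-1.35), Rpl5 (0.57) and Rpl11 (0.33). In that fit the total counts of twin pairs and intact blastocysts did not overlap, and the cause was not tested. Trp53inp1, Cdkn1a, Mdm2, Ccng1, Zmat3 and Btg2 kept their direction in 13 of 13 alternatives, Bbc3 in 12 of 12 and Sesn1 in 11 of 11 that tested it, Phlda3 in 11 of 13, and Trp53, at 0.00, in 5 of 13. In agreement of twins 0 members passed the 5% point and 2 (Mdm2 and Trp53) did with depth taken out (7.92% of all genes). In agreement of sisters 2 passed it, 1 with depth taken out (28.6% of all genes) and 1 with pairs of at most 2% mitochondrial counts (31%). No paired analysis was possible because the embryos of different groups carry different numbers.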
